A study of Mus musculus with 6 samples.

Results

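The nuclei described here are those of the mouse cerebellum that the deposited annotation named choroid plexus, the label Choroid_Plexus.Ttr. They were chosen by that label alone, and there were 83 of them among 45473 nuclei, or 0.183% of all nuclei, with 946180 of the UMIs (unique molecular identifiers, each standing for 1 captured RNA molecule). The label came from SingleR, which compares the RNA profile of each nucleus with a reference, and so it was made from the same counts as the levels given below. The markers of the label were *Ttr*, *Enpp2*, *Folr1*, *Kl* and *Htr2c*. Of the 83 nuclei, 22 held at least 130 UMIs of these markers. The other 61 held at most 14 UMIs of them and at least 15 UMIs of a list of genes of motile cilia, part of which the 22 carried too.

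Nuclei were isolated from whole cerebella of 3 *Pcp2-ATXN1[82Q]* mice (SCA1), which express human *ATXN1* with an expanded CAG repeat from the Purkinje cell promoter *Pcp2*, and of 3 wild-type littermates (WT), whose strain is given as C57Bl6. All mice were 12 weeks old, and each gave 1 single-nucleus library. Batch 1 (mouse 1 of each genotype) and batch 2 (the other 4 mice) were inferred from the library numbers, and the nuclei of the batch 1 mice all held at least 3000 UMIs. The transgene is driven in Purkinje cells. Human *ATXN1* had 57, 60 and 60 UMIs in the whole SCA1 libraries and 37, 17 and 15 in the WT libraries (0.579, 1.47 and 1.11 CPM against 0.377, 0.899 and 0.532 CPM), so that every SCA1 library was above every WT library in UMIs and, within its batch, in CPM, while the CPM overlapped across batches. At this level the 0 UMIs in the labelled nuclei are too few to say whether they carry it.

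The choroid plexus is a sheet of epithelial cells that hangs into the brain ventricles, the fourth ventricle beneath the cerebellum among them. Its cells secrete cerebrospinal fluid by moving sodium, chloride and bicarbonate across the epithelium, seal the blood from this fluid with tight junctions, and release transport proteins such as transthyretin, the product of *Ttr*. Ependymal cells line the same ventricles, carry many motile cilia, and share with the choroid plexus a program of cilia genes.

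The labelled nuclei numbered 27, 13 and 5 for SCA1 (mice 1 to 3, in this order throughout), against 14, 14 and 10 for WT (likewise mice 1 to 3). They made up 0.248%, 0.180% and 0.0732% of the nuclei of each SCA1 mouse, against 0.134%, 0.209% and 0.298% for WT, so that the groups overlapped. Exact Clopper-Pearson intervals (95%, counting error only) ran from 0.0238% to 0.171% for the lowest of these, SCA1 mouse 3, and from 0.143% to 0.548% for the highest, WT mouse 3. The mean share was 0.167% ± 0.0880 (SD, n = 3) in SCA1 and 0.214% ± 0.0823 (SD, n = 3) in WT, and a two-sided exact permutation test gave p = 0.5, where 3 against 3 mice cannot go below 0.1. The direction differed between batches. In batch 1 the SCA1 mouse had the higher share by 0.114 percentage points, and in batch 2 the mean of the SCA1 mice was lower than that of the WT mice by 0.127 percentage points (difference -0.127). Without SCA1 mouse 3 the means differed by 0.000444 percentage points.

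**Figure D1:**
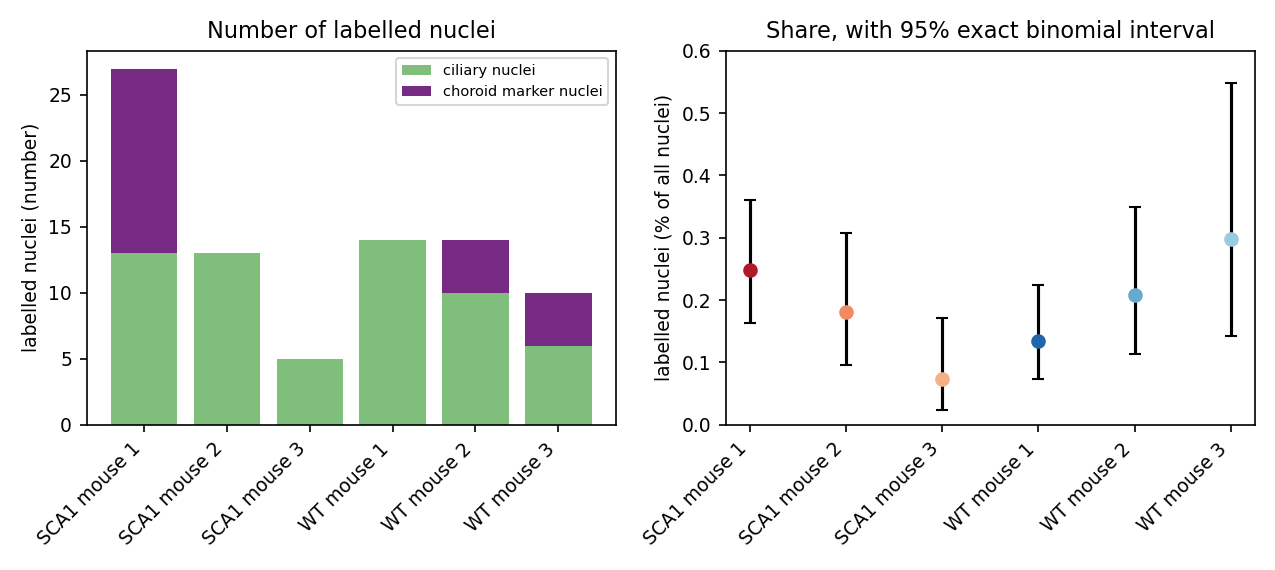
Left: the number of labelled nuclei per mouse, split into ciliary nuclei (green) and choroid marker nuclei (purple). Right: labelled nuclei as a percentage of all nuclei of the mouse, with 95% exact binomial intervals. Choroid marker nuclei came from SCA1 mouse 1 (14), WT mouse 2 (4) and WT mouse 3 (4).

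The labelled nuclei fell into 2 kinds, which were separated after the data had been seen, by whether the UMIs of the 5 markers summed to more than those of a list of 15 ependymal genes. The 22 nuclei above that line, called choroid marker nuclei here, had between 130 and 1635 UMIs of the markers, with a median of 517. The 61 nuclei below it, called ciliary nuclei, had between 0 and 14 UMIs of the markers, with a median of 1. No nucleus had a marker sum between these ranges. The ciliary nuclei had between 15 and 663 UMIs of the ependymal list, with a median of 139, and the choroid marker nuclei between 1 and 132, with a median of 38.5. Because the line was drawn on these genes, their levels are a description, and no test was run between the kinds.

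**Figure D2:**
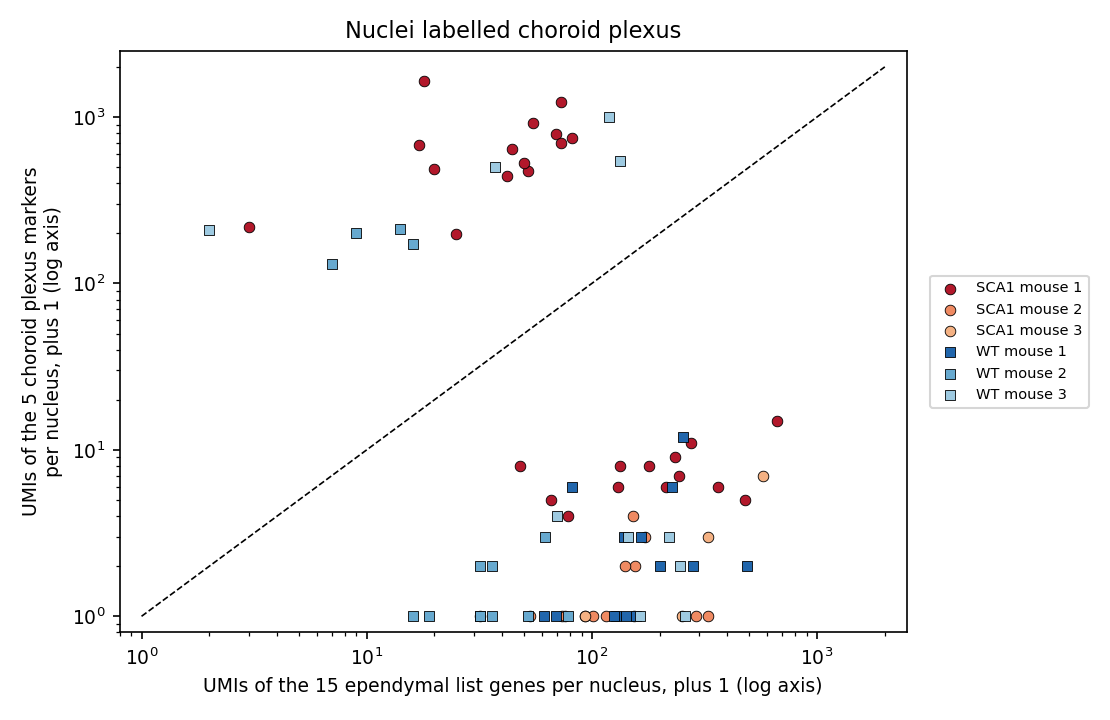
Each point is 1 of the 83 labelled nuclei, with the summed UMIs of the 15 ependymal list genes on the horizontal axis and of the 5 choroid plexus markers on the vertical axis, both plus 1 on log axes. Colours give the mouse, circles are SCA1 and squares WT, and the dashed line marks equal sums. The 22 choroid marker nuclei lie above the line with at least 130 marker UMIs, and the 61 ciliary nuclei lie below it with at most 14.

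The kinds were spread unevenly over the mice. Of the choroid marker nuclei, 14 were from SCA1 mouse 1, 4 from WT mouse 2 and 4 from WT mouse 3. The other 3 mice gave 0, and a count of 0 leaves room for 0.0416% of the nuclei of SCA1 mouse 2, 0.0439% of SCA1 mouse 3 and 0.0287% of WT mouse 1 (3 nuclei each, counting error only). Ciliary nuclei were found in every mouse, with 13, 13 and 5 for SCA1, against 14, 10 and 6 for WT. Their share was 0.124% ± 0.0537 (SD, n = 3) in SCA1 and 0.154% ± 0.0229 (SD, n = 3) in WT. SCA1 mouse 1 thus held 63.6% of the choroid marker nuclei, and 208960 of the 280695 UMIs of this kind. Levels of this kind are therefore given mouse by mouse or as a mean in which the 3 mice weigh the same. The correlations across genes, given below, pool the mice. How much of each ventricle lining was in a dissected piece and how many of its cells were lost cannot be told apart in these counts.

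The clusters of the deposited annotation drew the line elsewhere. In 41 labelled nuclei, all in SCA1 mouse 1 and WT mouse 1, the label was also the most frequent one of the nucleus's cluster within its mouse, and these 41 were 14 choroid marker nuclei and 27 ciliary nuclei. Of the 42 others, 36 (33 ciliary and 3 choroid marker nuclei) sat in clusters in which the label Gja1.Htra1, named after an astroglial gap junction gene, was most frequent. The choroid marker nuclei thus sat in different clusters by mouse. All 14 of SCA1 mouse 1 were in the choroid plexus cluster, while those of WT mouse 2 were in clusters in which the neuron labels Neuron.Gad1Gad2.Lgi2 (2 nuclei) and Neuron.Slc17a7.Gabra6 (2 nuclei) were most frequent, and those of WT mouse 3 in Gja1.Htra1 (3 nuclei) and Neuron.Gad1Gad2.Pcp2 (1 nucleus) clusters. Conversely, nuclei that carried the same RNAs under another label were few. In all mice 10 nuclei with other labels held at least 15 UMIs from at least 7 ependymal list genes, and 4, all of SCA1 mouse 1 and labelled as granule neurons, held at least 100 UMIs from at least 3 of the markers.

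The choroid marker nuclei had a median of 12919.5 UMIs and the ciliary nuclei of 9073 UMIs. The median of all labelled nuclei was 13643, 8323 and 16688 UMIs for SCA1, against 10100, 3010 and 12955 UMIs for WT, above the median of granule neurons in each mouse, where it lay between 2156 and 6948. The mean over mice was 12885 ± 4234 (SD, n = 3) in SCA1 and 8688 ± 5121 (SD, n = 3) in WT (two-sided exact permutation test, p = 0.4), and the median number of genes was 4400.3 ± 809 and 3452 ± 1424 (p = 0.5 by the same exact test). Within batch 1 the SCA1 mouse was higher by 3543 UMIs and within batch 2 the SCA1 mean by 4523 UMIs. The difference in means was 4196 UMIs with all mice and 1357 UMIs without WT mouse 2, where all nuclei had a median of 2246.5 UMIs. Mitochondrial RNA made up a median of 2.47% of the UMIs of choroid marker nuclei and 6.74% of those of ciliary nuclei. Within the 3 mice with both kinds it was 2.91%, 7.21% and 0.621% in choroid marker nuclei and 7.50%, 3.54% and 3.98% in ciliary nuclei, so that WT mouse 2 had the opposite order. In all other nuclei it ran from 0.480% to 5.04%. Of the barcodes, between 7 and 44 were shared by any pair of libraries, and 1 of these shared barcodes belonged to a labelled nucleus.

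The markers set the kinds far apart. Levels are given as CPM, the UMIs of a gene per 1000000 UMIs of the summed nuclei of a mouse. *Ttr*, which encodes the thyroid hormone and retinol carrier transthyretin, stood at 25995 CPM in the choroid marker nuclei of SCA1 mouse 1, 24966 CPM in WT mouse 2 and 8194 CPM in WT mouse 3. In the ciliary nuclei it stood at 307, 0 and 0 CPM for SCA1, against 0, 74.2 and 57.1 CPM for WT. *Ttr* was thus at 0 in the ciliary nuclei of the same 3 mice that had no choroid marker nuclei.

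*Ttr* was also counted in nuclei that are not known to make it. Granule neurons, the small excitatory neurons that form most of the cerebellum, held 699, 2.09 and 0.280 CPM of *Ttr* for SCA1, against 3.54, 103 and 127 CPM for WT. A *Ttr* UMI was found in 98.8% of granule neurons of SCA1 mouse 1, where their median was 5 such UMIs, in 20.7% in WT mouse 2, in 55.7% in WT mouse 3, and in at most 2.69% in the other mice. In every mouse the level in ciliary nuclei was below that in granule neurons of that mouse. A *Ttr* UMI was found in 18 of the 61 ciliary nuclei, and these are not read as expression. Of all *Ttr* UMIs of SCA1 mouse 1, 8.40% were in labelled nuclei, against 17.6% in WT mouse 2 and 13.1% in WT mouse 3.

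**Figure D3:**
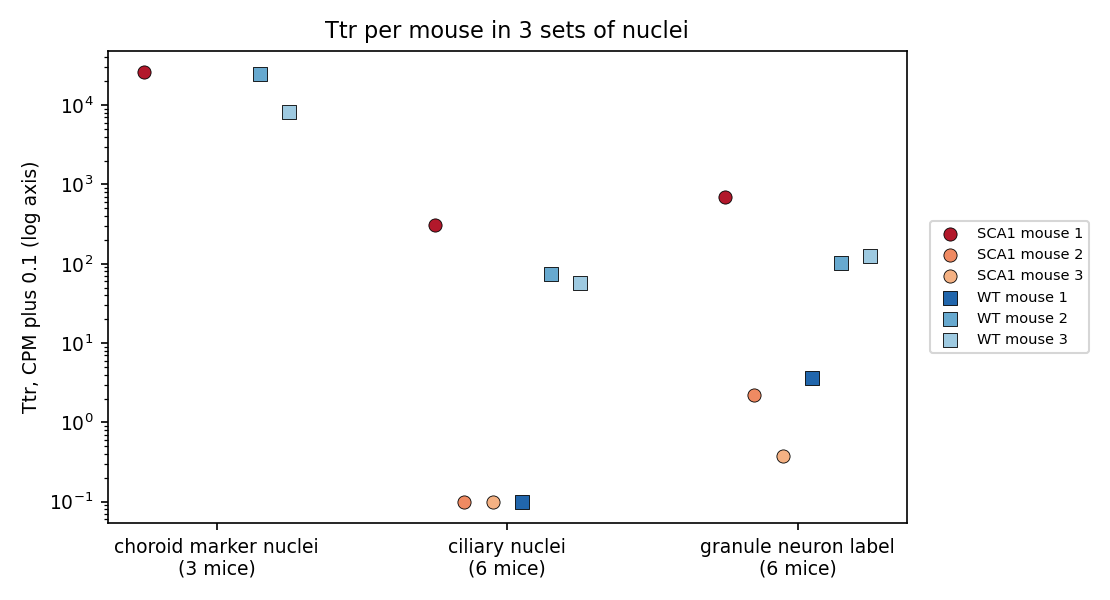
*Ttr* in CPM plus 0.1 on a log axis in choroid marker nuclei, ciliary nuclei and granule neurons, with 1 point per mouse (circles SCA1, squares WT). The choroid marker nuclei of 3 mice lie between 8194 and 25995 CPM, and the ciliary nuclei lie at or below 307 CPM and below the granule neurons of the same mouse.

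*Htr2c*, the serotonin receptor 2C (GRCm38, chromosome X, 146962513 to 147197277, plus strand), stood at 11596, 6897 and 16720.5 CPM in the choroid marker nuclei of SCA1 mouse 1, WT mouse 2 and WT mouse 3. In ciliary nuclei it was at 5.77 CPM in WT mouse 1 and at 0 in the other 5 mice. Every choroid marker nucleus had a UMI of it, with between 6 and 569 per nucleus, against 1 of 61 ciliary nuclei.

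*Enpp2*, which encodes the secreted lipid enzyme autotaxin (chromosome 15, 54838901 to 54952892, minus strand), stood at 7925, 16000.0 and 12999 CPM in the choroid marker nuclei, and at 57.6 ± 31.2 CPM (SD, n = 6) in ciliary nuclei, near the 73.9 ± 29.4 CPM (SD, n = 6) of all nuclei without the label. *Kl*, the anti-ageing co-receptor klotho (chromosome 5, 150952607 to 150993817, plus strand), stood at 459, 897 and 1240.5 CPM in the choroid marker nuclei and was detected in 1 ciliary nucleus. It was seen in 21 of 22 choroid marker nuclei.

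*Folr1*, the folate receptor that carries folate into the cerebrospinal fluid (chromosome 7, 101858331 to 101870788, minus strand), was the exception among the markers. It stood at 354, 276 and 262 CPM in the choroid marker nuclei. In ciliary nuclei it reached 87.7, 31.7 and 0 CPM for SCA1, against 80.8, 0 and 42.8 CPM for WT, while all other nuclei held 0.608 ± 0.784 CPM (SD, n = 6). Most UMIs behind the values of SCA1 mouse 1 and WT mouse 1 came from 1 ciliary nucleus each, with 10 and 8 UMIs of *Folr1*. A UMI of *Folr1* was found in 14 of 61 ciliary nuclei, including those of 2 mice without any choroid marker nucleus.

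The choroid marker nuclei carried the machinery of fluid secretion. Of a list of 21 genes for ion and water transport, all had a UMI in them, and 12 were higher than in the rest of the nuclei in each of the 3 mice. The background, here and below, was 29.2% of the 4237 genes with at least 50 UMIs in labelled nuclei. List members did not have to meet this minimum. The 21 genes together held between 10691 and 14537 CPM in these nuclei, between 1150.2 and 2019 CPM in ciliary nuclei, and between 1599 and 2245 CPM in all other nuclei. In the ciliary nuclei 0 of the 21 were higher in every mouse, against a background of 29.8%. The labels were made from these counts, so these counts of genes describe the nuclei and test nothing. The rest of the nuclei, here and below, is a pool of all other labels, mostly granule neurons (37532 of all 45473 nuclei). A gene higher than in this pool need not be higher than in each label within it.

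*Stk39*, the kinase SPAK that switches on chloride cotransport, stood at 3259, 2621 and 4927 CPM in the choroid marker nuclei and at 79.0 ± 52.4 CPM (SD, n = 6) in ciliary nuclei. *Slc4a10*, a sodium bicarbonate transporter, stood at 2278, 2897 and 3914 CPM, against 155 ± 82.6 CPM (SD, n = 6) in ciliary nuclei. *Atp1b1*, a subunit of the sodium pump, was closer, with 651, 414 and 821 CPM against 205 ± 79.0 CPM (SD, n = 6).

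Several transporters of this list were high in the choroid marker nuclei and low in the pool of all other nuclei. Their levels in the single labels of that pool are not given here. *Slc4a5*, another sodium bicarbonate transporter, stood at 526, 414 and 542 CPM in the choroid marker nuclei and was at 0 in the ciliary nuclei of all 6 mice. *Kcne2*, a potassium channel subunit, stood at 229.7, 414 and 279.5 CPM and was likewise at 0 in the ciliary nuclei. *Car12*, a carbonic anhydrase, stood at 483, 1241 and 629 CPM, and *Clic6*, a chloride channel protein, at 713, 966 and 961 CPM. In all other nuclei these 4 genes had means of 0.305 to 4.58 CPM.

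Genes outside the naming rule, picked after their values were seen, gave the same order in part. *Slc12a2*, the cotransporter NKCC1, stood at 622, 966 and 856 CPM in the choroid marker nuclei and at 36.2 ± 34.3 CPM (SD, n = 6) in ciliary nuclei. *Aqp1*, the water channel of the choroid plexus, had only 4 UMIs in all choroid marker nuclei.

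Carriers of hormones and vitamins came next. Of 10 genes for thyroid hormone and retinoid handling, *Ttr* among them, 8 had a UMI in each kind. In choroid marker nuclei 5 (50%) were higher in every mouse, against the background of 29.2%, and 1 (10%) in ciliary nuclei, below the background of 29.8%. *Ttr* is one of the 5 by the choice of the kinds. *Thrb*, a thyroid hormone receptor, was the member higher in both kinds, with a mean of 417 ± 259 CPM (SD, n = 3) in choroid marker nuclei, 214 ± 91.4 CPM (SD, n = 6) in ciliary nuclei and 70.2 ± 14.3 CPM (SD, n = 6) in all other nuclei.

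Of 17 solute carriers and pumps, 8 (47.1%, background 29.2%) were higher in every mouse in choroid marker nuclei and 3 (17.6%, background 29.8%) in ciliary nuclei. *Slc23a2*, a vitamin C transporter, stood at 675, 1172 and 489 CPM in choroid marker nuclei and 44.5 ± 33.8 CPM (SD, n = 6) in ciliary nuclei. *Slc2a1*, the glucose transporter GLUT1, went the other way, with 57.4, 0 and 0 CPM in choroid marker nuclei and between 139 and 455 CPM in the ciliary nuclei of the 6 mice. *Slc39a12*, a zinc transporter, was above the other nuclei in both kinds, with 274 ± 132 CPM (SD, n = 3) and 209 ± 96.0 CPM (SD, n = 6) against 34.6 ± 9.12 CPM (SD, n = 6).

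Of 17 genes for secreted proteins and other choroid plexus products, 13 (76.5%, background 29.2%) were higher in every mouse in choroid marker nuclei and 3 (17.6%, background 29.8%) in ciliary nuclei. The 13 include *Enpp2* and *Kl*, by which the kinds were separated. *Trpm3*, a cation channel whose intron holds a microRNA of the choroid plexus, stood at 23708, 15586 and 33651 CPM in choroid marker nuclei, at 204 ± 126 CPM (SD, n = 6) in ciliary nuclei and at 1971 ± 384 CPM (SD, n = 6) in all other nuclei. *Bmp6*, a secreted growth factor of the BMP family, was high in both kinds, with 426, 897 and 349 CPM in choroid marker nuclei and between 111 and 571 CPM in ciliary nuclei, against 18.7 ± 6.64 CPM (SD, n = 6). *Clu*, the chaperone clusterin, stood at 249, 276 and 69.9 CPM in choroid marker nuclei. In ciliary nuclei it stood at 1305 and 1488 CPM in the batch 1 mice and between 223 and 333 CPM in the batch 2 mice, and in WT mouse 2 it was lower there (223 CPM) than in the choroid marker nuclei.

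Receptors and junction genes were counted next. In choroid marker nuclei 5 of 12 receptors (41.7%) and 9 of 14 genes of epithelial junctions and keratins (64.3%) were higher in every mouse, against the background of 29.2%. The 5 receptors include *Htr2c* and *Folr1*, markers by which the kinds were separated, so that their place in the count was fixed by that choice. In ciliary nuclei 2 of the receptors (16.7%) and 4 of the junction genes (28.6%) were, against 29.8%. The junction genes of the choroid marker nuclei included *Pard3*, a polarity protein, with 359, 345 and 507 CPM. *Magi1*, a junction scaffold, stood at 657 ± 184 CPM (SD, n = 3) in choroid marker nuclei and 466 ± 124 CPM (SD, n = 6) in ciliary nuclei. *Cdh2*, N-cadherin, went the other way, with 33.5, 0 and 0 CPM in choroid marker nuclei, 224 ± 104 CPM (SD, n = 6) in ciliary nuclei and 243 ± 40.3 CPM (SD, n = 6) in all other nuclei. *Ocln*, the tight junction protein occludin, stood at 115, 0 and 192 CPM in choroid marker nuclei and at 139 ± 64.2 CPM (SD, n = 6) in ciliary nuclei, against 31.2 ± 4.49 CPM (SD, n = 6). Claudins, the sealing proteins of tight junctions, were named after their values were seen. *Cldn1* was at 52.6, 69.0 and 52.4 CPM in the choroid marker nuclei (69.0 CPM is 1 UMI in WT mouse 2) and at 0 in all ciliary nuclei, against 0.104 ± 0.0937 CPM (SD, n = 6) in all other nuclei. *Cldn2* was at 90.9, 69.0 and 52.4 CPM in the choroid marker nuclei, at 1.92 ± 4.71 CPM (SD, n = 6) in ciliary nuclei and at 0.202 ± 0.178 CPM (SD, n = 6) in all other nuclei, and *Cldn3* had 1 UMI in the choroid marker nuclei. Receptors in both kinds included *Fgfr2*, a growth factor receptor, at 670.2 ± 145 CPM (SD, n = 3) and 379 ± 226 CPM (SD, n = 6), beside 384 ± 130.3 CPM (SD, n = 6) in all other nuclei.

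Of 14 transcription regulators, 10 (71.4%, background 29.2%) were higher in every mouse in choroid marker nuclei and 7 (50%, background 29.8%) in ciliary nuclei. *Gmnc*, which starts the multiciliated cell program, stood at 1464, 1586 and 1555 CPM in choroid marker nuclei, at 56.9 ± 47.9 CPM (SD, n = 6) in ciliary nuclei and at 0.672 ± 0.224 CPM (SD, n = 6) in all other nuclei. *Rfx3*, which drives cilia genes, was in both kinds, with 727, 897 and 1188 CPM in choroid marker nuclei and 1082 ± 323 CPM (SD, n = 6) in ciliary nuclei, and *Rfx2*, its relative, stood at 137 ± 68.6 CPM (SD, n = 3) and 297 ± 57.4 CPM (SD, n = 6). *Otx2* and *Lmx1a*, regulators of choroid plexus fate picked after their values were seen, stood at 482 ± 177 CPM and 387 ± 167 CPM (SD, n = 3) in choroid marker nuclei and 18.4 ± 27.2 CPM and 2.24 ± 3.55 CPM (SD, n = 6) in ciliary nuclei. Hox genes, which mark the hindbrain, were detected in choroid marker nuclei of SCA1 mouse 1 alone, with 3 UMIs of *Hoxb3*, 3 of *Hoxb4* and 4 of *Hoxb3os*, while *Emx1*, a forebrain gene, had 4 UMIs in all choroid marker nuclei.

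**Figure D4:**
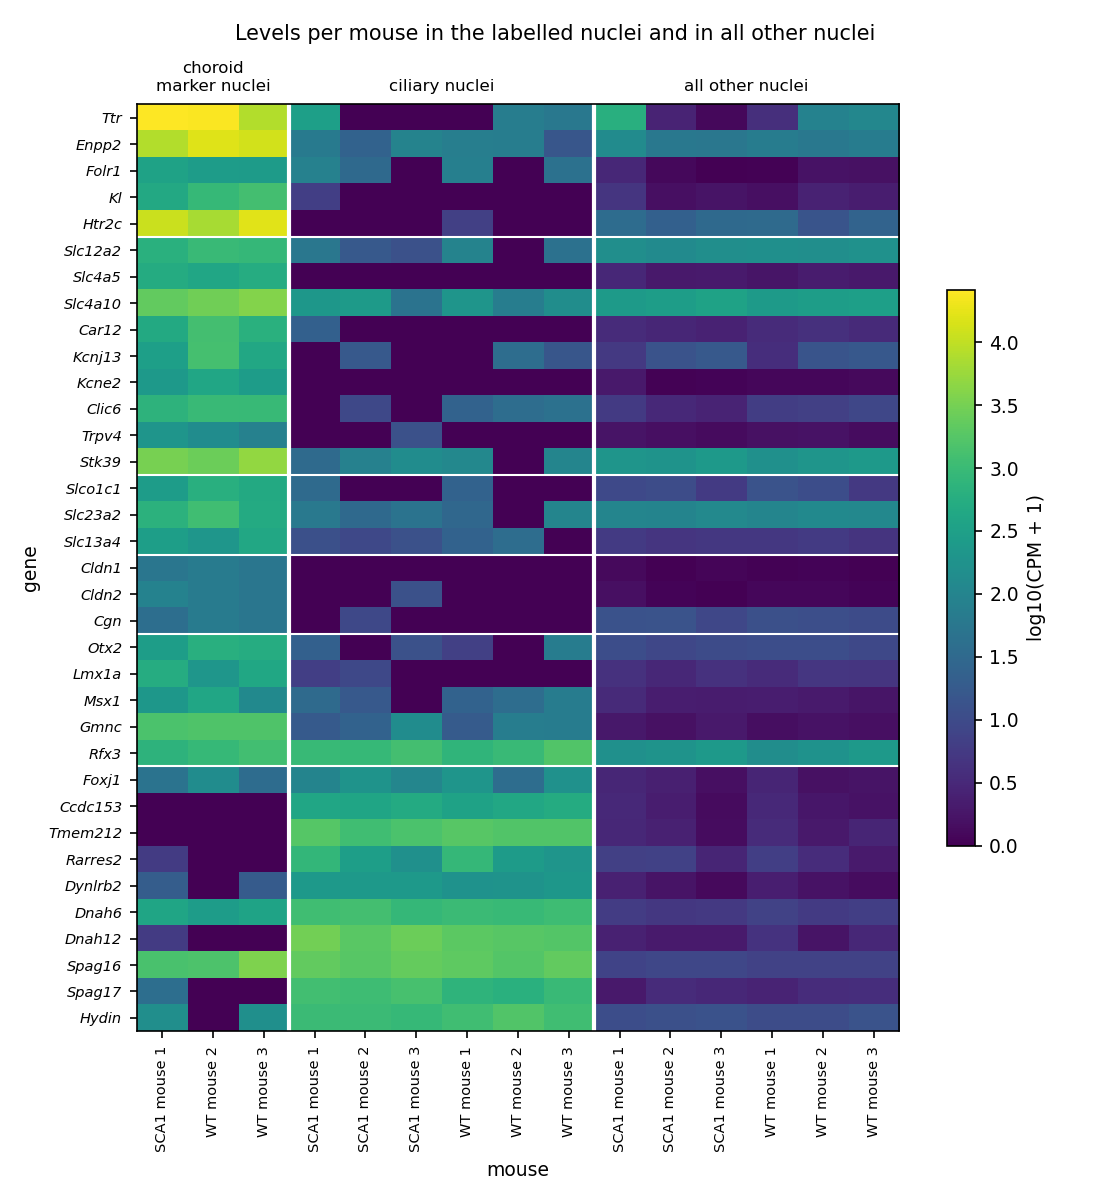
Level of 35 genes (rows) as log10(CPM + 1) per mouse (columns) in choroid marker nuclei, ciliary nuclei and all nuclei without the label. White lines separate the markers, ion and water transport, carriers, junctions, regulators and the ependymal list. The upper groups are bright in the choroid marker nuclei, the ependymal list in the ciliary nuclei, and *Rfx3*, *Spag16* and *Dnah6* in both.

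The 20 genes with the largest median ratio to all other nuclei of the same mouse, over all labelled nuclei, were led by *Dnah12*, a dynein motor of the ciliary axoneme, and *Cfap299*, a cilia and flagella associated protein, *Dnah12* with a log2 ratio of 9.23. Among choroid marker nuclei the leading genes were *Gmnc* (log2 ratio 9.92), *Htr2c* (8.92), *Tmem72* (8.66), a membrane protein, and *Kl* (8.38), followed by *Rbm47*, an RNA-binding protein (8.37). *Tmem72* stood at 632, 552 and 716 CPM in choroid marker nuclei and at 0 in ciliary nuclei of all 6 mice. *Prdm16*, a chromatin regulator, stood at 957, 1172 and 2219 CPM against 39.2 ± 45.4 CPM (SD, n = 6), and *Col8a1*, a collagen, at 914, 1241 and 1415 CPM against 1.92 ± 4.71 CPM (SD, n = 6). Of the 5 markers, *Htr2c*, *Kl*, *Enpp2* and *Folr1* were among the 20 leading genes of the choroid marker nuclei and *Ttr* was not. The ratio of *Ttr* was taken to its level in all other nuclei, which was 610.5 CPM in SCA1 mouse 1 and 136 ± 237 CPM (SD, n = 6) over the mice.

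The ciliary nuclei carried the whole ependymal list. All 15 members had UMIs in them and all 15 were higher than in the rest of the nuclei in each of the 6 mice, against the background of 29.8%. The kinds were separated by this list, so that its count was in part fixed by that choice and is a description only. The summed level of the list was 16970, 14027 and 16120 CPM for SCA1, against 14433, 14285 and 15668 CPM for WT, with overlapping groups, and it lay between 94.4 and 119 CPM in all other nuclei. In choroid marker nuclei it was 2914, 2897 and 5014 CPM.

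*Dnah12* stood in the ciliary nuclei at 2933, 1919 and 2656 CPM for SCA1, against 2030.5, 1818 and 1712 CPM for WT, and it had 1 UMI in the choroid marker nuclei. *Tmem212*, a membrane protein, stood at 1798, 1142 and 1443 CPM and at 1823, 1633 and 1641 CPM in the same order, and it was at 0 in the choroid marker nuclei, as was *Ccdc153*, a coiled-coil protein. *Dnah11*, another axonemal dynein, stood at 1201 ± 203 CPM (SD, n = 6) in ciliary nuclei and 172 ± 36.0 CPM (SD, n = 3) in choroid marker nuclei. *Rgs22* and *Wdr49*, leading genes that are in no list, stood at 1390.0 ± 287 CPM and 1615 ± 278 CPM (SD, n = 6) in ciliary nuclei and at 0 in choroid marker nuclei.

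Part of the cilia program was shared. *Spag16*, which encodes a protein of the central pair of the cilium, stood at 1426, 1517 and 3599 CPM in choroid marker nuclei and at 2085 ± 257 CPM (SD, n = 6) in ciliary nuclei, against 6.87 ± 0.639 CPM (SD, n = 6) in all other nuclei. *Dnah6* stood at 343 ± 59.5 CPM (SD, n = 3) and 1040.2 ± 136 CPM (SD, n = 6), and *Lrriq1* at 589.9 ± 336 CPM (SD, n = 3) and 947 ± 340.3 CPM (SD, n = 6). The 3 mice that had both kinds held 2541 genes with at least 50 UMIs in labelled nuclei. Of the 2541, 98 were over 8-fold higher than in the other nuclei in both kinds in each mouse. The choroid marker nuclei of WT mouse 2 held 14500 UMIs, where 1 UMI is 69.0 CPM, so that few UMIs pass this line. Between the kinds, 139 of the 2541 were over 4-fold higher in the choroid marker nuclei in each mouse, 202 were over 4-fold higher in the ciliary nuclei, and 436 were within 2-fold. *Foxj1*, the regulator of motile cilia, was at 73.6 ± 56.1 CPM (SD, n = 3) and 133 ± 63.0 CPM (SD, n = 6), against 1.17 ± 0.660 CPM (SD, n = 6).

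Promoters of these cilia genes were searched for the X-box, the site bound by RFX factors, made here of the half-sites GTNNCC and GNAAC with 3 bases between them and read on both strands. The windows were those of RefSeq on GRCm38.p6, from 250 bases before to 50 bases after each start. An X-box was in 3 of the 13 ependymal list genes that had a window (*Spag16*, *Hydin* and *Cfap44*, 23.1%), in 2 of 15 leading genes of the choroid marker nuclei (*Spag16* and *Lrriq1*, 13.3%) and in 3 of 14 leading genes of the ciliary nuclei (*Cfap61*, *Ak9* and *Ccdc180*, 21.4%). Of all 27025 genes with a window, 2.49% had one. The forkhead site GTAAACA was in 2 of the 13, 0 of the 15 and 3 of the 14 (15.4%, 0% and 21.4%), against 4.05% of all genes. The *Otx2* core TAATCC was in 1 of the 13, 1 of the 15 and 2 of the 14 (7.69%, 6.67% and 14.3%), against 8.14% of all genes. *Kl* and *Htr2c* were the markers with a window, and neither had any of the 3 motifs. A match is a stretch of letters and not a measured site. The stretches of the 4 genes whose X-box lies before the start are shown because *Spag16*, *Lrriq1* and *Cfap44* were over 8-fold above all other nuclei in both kinds in each of the 3 mice, while *Hydin* was at 0 in the choroid marker nuclei of WT mouse 2. Each is printed 5′ to 3′ on the strand of the gene, with the X-box in capitals, and it ends at or before the base that precedes the start.
Spag16 (chr1:69826817-69826930, plus strand): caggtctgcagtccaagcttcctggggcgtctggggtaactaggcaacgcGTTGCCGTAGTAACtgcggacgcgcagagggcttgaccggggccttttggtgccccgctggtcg
Lrriq1 (chr10:103236323-103236391, minus strand): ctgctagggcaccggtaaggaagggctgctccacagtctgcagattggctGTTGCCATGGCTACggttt
Hydin (chr8:110266906-110266976, plus strand): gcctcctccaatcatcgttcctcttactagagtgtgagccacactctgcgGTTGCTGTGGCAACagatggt
Cfap44 (chr16:44394722-44394798, plus strand): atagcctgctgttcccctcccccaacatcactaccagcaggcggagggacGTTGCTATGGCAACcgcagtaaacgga
*Hydin*, a central pair protein whose loss causes hydrocephalus, stood at 1157 ± 267 CPM (SD, n = 6) in ciliary nuclei and 103 ± 89.6 CPM (SD, n = 3) in choroid marker nuclei. *Cfap44*, an axonemal protein, stood at 1135 ± 217 CPM and 332 ± 74.5 CPM in the same order.

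RNAs of other cell types were checked as whole lists. Of 8 granule neuron genes all 8 were lower than in the other nuclei in every mouse in both kinds (background 24.2% of genes for choroid marker nuclei and 19.2% for ciliary nuclei), with summed levels between 69.9 and 1393 CPM in choroid marker nuclei and between 385 and 1442 CPM in ciliary nuclei, against 6490.4 to 7457 CPM in granule neurons. Of 7 Purkinje cell genes, 1 (14.3%, background 29.2%) was higher in every mouse in choroid marker nuclei and 0 in ciliary nuclei. The 8 endothelial and mural genes summed to at most 23.9 CPM and the 8 stromal genes to at most 93.2 CPM in either kind. The 6 oligodendrocyte genes reached 1056 CPM in the ciliary nuclei of WT mouse 1, below the 1673 CPM of its other nuclei. All 6 were lower in ciliary nuclei than in the other nuclei in every mouse. The 7 microglial genes reached 519 CPM in the ciliary nuclei of WT mouse 2, above the 223 CPM of its other nuclei. Their part in the levels above was not tested.

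Astroglial genes were low in the choroid marker nuclei, and a pair of them stood above the other nuclei in the ciliary nuclei. *Aqp4*, the astroglial water channel, stood at 449 ± 158 CPM (SD, n = 6) in ciliary nuclei, 81.8 ± 31.7 CPM (SD, n = 6) in all other nuclei and 33.5, 0 and 0 CPM in choroid marker nuclei. *Gja1*, a gap junction protein, stood at 262 ± 130.2 CPM (SD, n = 6), 49.5 ± 23.2 CPM (SD, n = 6) and 33.5, 0 and 0 CPM in the same order. These 2 of the 7 astroglial genes (28.6%) were higher in every mouse in ciliary nuclei, a share near the background of 29.8%, and 0 of the 7 in choroid marker nuclei. The 7 genes summed to 1150.2 ± 302 CPM (SD, n = 6) in ciliary nuclei and 575 ± 185 CPM (SD, n = 6) in all other nuclei, and to 359, 0 and 52.4 CPM in choroid marker nuclei. Across 10037 genes the profile of the ciliary nuclei was most like that of the nuclei labelled Gja1.Htra1 (Pearson's r = 0.750, Spearman's rho = 0.761), then Astrocyte.Gja.Slc1a3 (r = 0.740, rho = 0.756), and that of the choroid marker nuclei was about as like the ciliary nuclei (r = 0.692, rho = 0.721) as the nuclei labelled Endothelial_Tip.Dcn.Nnat (r = 0.692, rho = 0.729). Only genes above a minimum level over all nuclei entered, so that genes below it, such as *Dnah12*, *Tmem212* and *Gmnc*, were left out. The likeness is thus not one of the whole profile. Profiles were pooled over mice, so that SCA1 mouse 1 weighs most in that of the choroid marker nuclei. The labels compared held between 119858 and 243177930 UMIs, and the effect of this depth on their order was not tested. Genes are not independent replicates, the profiles come from the same libraries, and these correlations are a description only.

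The lists for inflammation and stress had shares of genes higher in every mouse that were below the background. That background held only genes with at least 50 UMIs in labelled nuclei. List members with fewer were counted too, so that the shares are not like for like. The 12 interferon and antigen presentation genes summed to 65.3 ± 72.6 CPM (SD, n = 3) in choroid marker nuclei and 108 ± 48.9 CPM (SD, n = 6) in ciliary nuclei, against 167 ± 39.7 CPM (SD, n = 6) in all other nuclei, and 0 of them was higher in every mouse. The 10 immediate early genes summed to 145 ± 69.4 CPM (SD, n = 3) in choroid marker nuclei and 202 ± 56.2 CPM (SD, n = 6) in all other nuclei. In ciliary nuclei they summed to 235 ± 57.8 CPM (SD, n = 6), above the other nuclei of the same mouse in all 6 mice, although 0 of the 10 was itself higher in every mouse. Of 14 genes for metals and antioxidants, 2 (14.3%, background 29.2%) were higher in every mouse in choroid marker nuclei and 3 (21.4%, background 29.8%) in ciliary nuclei, with sums of 1321 ± 383 CPM (SD, n = 3) and 1686 ± 799 CPM (SD, n = 6) against 1271 ± 791 CPM (SD, n = 6) in all other nuclei. *Mt1*, a metallothionein, stood at 686 ± 371 CPM (SD, n = 6) in ciliary nuclei and 369 ± 289.9 CPM (SD, n = 6) in all other nuclei.

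The comparison of genotypes asks whether mutant *ATXN1* in Purkinje cells goes with changes in these nuclei. UMIs of all labelled nuclei were summed per mouse and tested with edgeR's quasi-likelihood test, in a model of genotype with a batch term. Of 2941 genes tested 0 passed an adjusted p of 0.05 (0% called, smallest adjusted p = 0.9999), with 15 (0.51%) at an unadjusted p under 0.05. DESeq2 called 0 as well, with 32 (1.09%) at an unadjusted p under 0.05. Both shares are below what a p cutoff of 0.05 lets through where nothing changes. These tests thus cannot show an absence of change. The SCA1 and WT mice did not overlap in 4.73% of the genes, 72 (2.45%) with all SCA1 mice above and 67 (2.28%) with all below. The change in labelled nuclei was not called different from that in granule neurons of the same mice for any of the 2941 genes either (0% called by edgeR with mouse as a term, smallest adjusted p = 0.9999; 23 (0.782%) at an unadjusted p under 0.05, and 57 (1.94%) by DESeq2, which also called 0 with a smallest adjusted p of 0.0556).

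The markers moved with the mixture of kinds. Over all labelled nuclei *Ttr* stood at 14023, 0 and 0 CPM for SCA1, against 0, 8781 and 3715 CPM for WT. *Htr2c* stood at 6191, 0 and 0 CPM and at 5.77, 2412 and 7517 CPM, and *Enpp2* at 4262, 23.8 and 92.4 CPM and at 75.0, 5645 and 5852 CPM. In each gene the 3 mice without choroid marker nuclei were the lowest, whatever their genotype, and the groups overlapped. The fitted log2 fold changes of SCA1 against WT were -7.24 ± 4.88 (SE computed from the F statistic) for *Ttr*, -6.78 ± 4.42 for *Htr2c*, -4.77 ± 3.00 for *Enpp2*, -2.62 ± 2.38 for *Kl* and -0.82 ± 1.01 for *Folr1*, each with an adjusted p of 0.9999 by edgeR. Without 1 mouse the value ran from -6.72 to -0.29 for *Enpp2* and from -9.07 to -0.18 for *Kl*, and DESeq2 gave -8.24 for *Kl*, -12.10 for *Ttr*, -11.51 for *Htr2c* and -1.26 for *Folr1*. As some mice are at 0, these folds depend on the offset added by the fit. Without the batch term *Ttr* had a log2 fold change of 0.35.

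Leaving out 1 mouse of batch 1 changed the calls. The other mouse of batch 1 then adds nothing to the genotype term. The fit then sets 2 SCA1 mice without choroid marker nuclei against 2 WT mice with 4 each. Whether the calls come from this was not tested. Without SCA1 mouse 1, 53 of 3416 genes were called (1.55%), 4 higher (0.117%) and 49 lower (1.43%) in SCA1, and all 49 were over 4-fold higher in choroid marker nuclei than in ciliary nuclei. Without WT mouse 1, 73 of 3442 were called (2.12%), 4 higher (0.116%) and 69 lower (2%), 68 of the 69 over 4-fold higher in choroid marker nuclei, and the 53 were among the 73. The share of all tested genes over this 4-fold line of means was not computed. By another rule, over 4-fold in each of 3 mice, it was 139 of 2541 genes with at least 50 UMIs. The lower genes included *Ttr*, *Htr2c*, *Kl* and *Enpp2* in both. Without a filter on low counts 2 of 17722 genes were called (0.0113%), *Ttr* and *Htr2c*, both lower. Without any 1 of the other 4 mice, edgeR called 0 genes, with 7 to 37 at an unadjusted p under 0.05.

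The gene lists were counted over all labelled nuclei and over the ciliary nuclei alone. Of the 21 ion and water transport genes 13 were tested over all labelled nuclei, with 0 called and a median log2 fold change of -1.44, beside -0.0042 over all 2941 genes. In the ciliary nuclei alone 6 were tested, with 0 called and a median of 0.05, beside 0.01 over all 2304 genes tested there. All 15 ependymal list genes were tested in both, with 0 called and medians of 0.10 and 0.01. The largest positive and negative of these 15 in the ciliary nuclei were 0.60 and -0.39 on the log2 scale.

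Restricting the test to the 61 ciliary nuclei, which every mouse had, was chosen after the data had been seen. It called 0 of 2304 genes by edgeR (0% called, smallest adjusted p = 0.882), with 50 (2.17%) at an unadjusted p under 0.05, and 0 when any 1 mouse was left out, then with 63 to 79 at an unadjusted p under 0.05. The groups did not overlap in 7.03% of the genes, 98 (4.25%) with all SCA1 mice above and 64 (2.78%) with all below. Of all labelled nuclei with a UMI of at least 2 of *Enpp2*, *Folr1*, *Kl* and *Htr2c*, SCA1 mouse 3 had none, and the others had 18 and 1 (SCA1 mice 1 and 2) and 3, 4 and 4 (WT). The nuclei of SCA1 mouse 2 and WT mouse 1 among them were ciliary nuclei, so that this choice still mixed the kinds. In these 5 mice edgeR called 0 of 794 genes, also with 0 at an unadjusted p under 0.05.

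The 10 genes with the smallest p over all labelled nuclei are given as values, since none passed the test. They were chosen for their p, and groups of mice that do not overlap follow in part from that choice. In order they were *Rnf220*, *Ccnd3*, *Kctd16*, *Ntm*, *Rnf111*, *Mamdc2*, *Afap1l2*, *Tgfb2*, *Asrgl1* and *Anks1b*. The first 3 also had the 3 smallest p in the ciliary nuclei alone.

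*Rnf220*, a ubiquitin ligase (chromosome 4, 117271463 to 117497052, minus strand), stood at 38.3, 23.8 and 11.5 CPM for SCA1, against 133, 145 and 102 CPM for WT over all labelled nuclei, on 61 UMIs in all. Its log2 difference was -2.23 ± 0.62 (SE, edgeR adjusted p = 0.9999), and in the ciliary nuclei it was -2.72 ± 0.65 (edgeR adjusted p = 0.882), with 21.9, 23.8 and 11.5 CPM in SCA1 and 133, 223 and 99.9 CPM in WT. The groups did not overlap in either set, as in 4.73% and 7.03% of all genes tested, and both sets hold the same ciliary nuclei. In granule neurons *Rnf220* was at 59.9, 52.1 and 36.1 CPM in SCA1 and 62.9, 48.1 and 35.3 CPM in WT, where the groups overlapped.

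*Ccnd3*, a D-type cyclin (chromosome 17, 47505051 to 47599691, plus strand), stood in the ciliary nuclei at 170.0, 143 and 162 CPM for SCA1, against 288, 557 and 542 CPM for WT, with no overlap. The log2 difference was -1.43 ± 0.36 (SE, edgeR adjusted p = 0.882). *Kctd16*, a subunit associated with GABA-B receptors, stood at 389, 269.6 and 231 CPM in SCA1 and 121, 74.2 and 28.5 CPM in WT, again with no overlap, and its log2 difference was 2.01 ± 0.47 (SE, edgeR adjusted p = 0.882). The ciliary nuclei of WT mice 2 and 3 held 26951 and 70081 UMIs of all genes, so that their *Kctd16* values rest on few UMIs. Over all labelled nuclei the log2 difference of *Kctd16* was 1.97, and it was among the 4 higher calls without SCA1 mouse 1 (3.27, edgeR adjusted p = 0.0498) and without WT mouse 1 (3.30, edgeR adjusted p = 0.0321). Each of these 4 calls stood higher in ciliary than in choroid marker nuclei, as given above. In ciliary nuclei *Kctd16* was not called without any 1 mouse (edgeR adjusted p from 0.290 to 0.9996). In granule neurons *Kctd16* was between 2.80 and 12.8 CPM and *Ccnd3* between 5.75 and 14.2 CPM, with overlapping groups. In the choroid marker nuclei *Kctd16* had 1 UMI, and *Ccnd3* stood at 52.6 CPM in SCA1 mouse 1 and 69.0 and 69.9 CPM in WT mice 2 and 3.

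**Figure D5:**
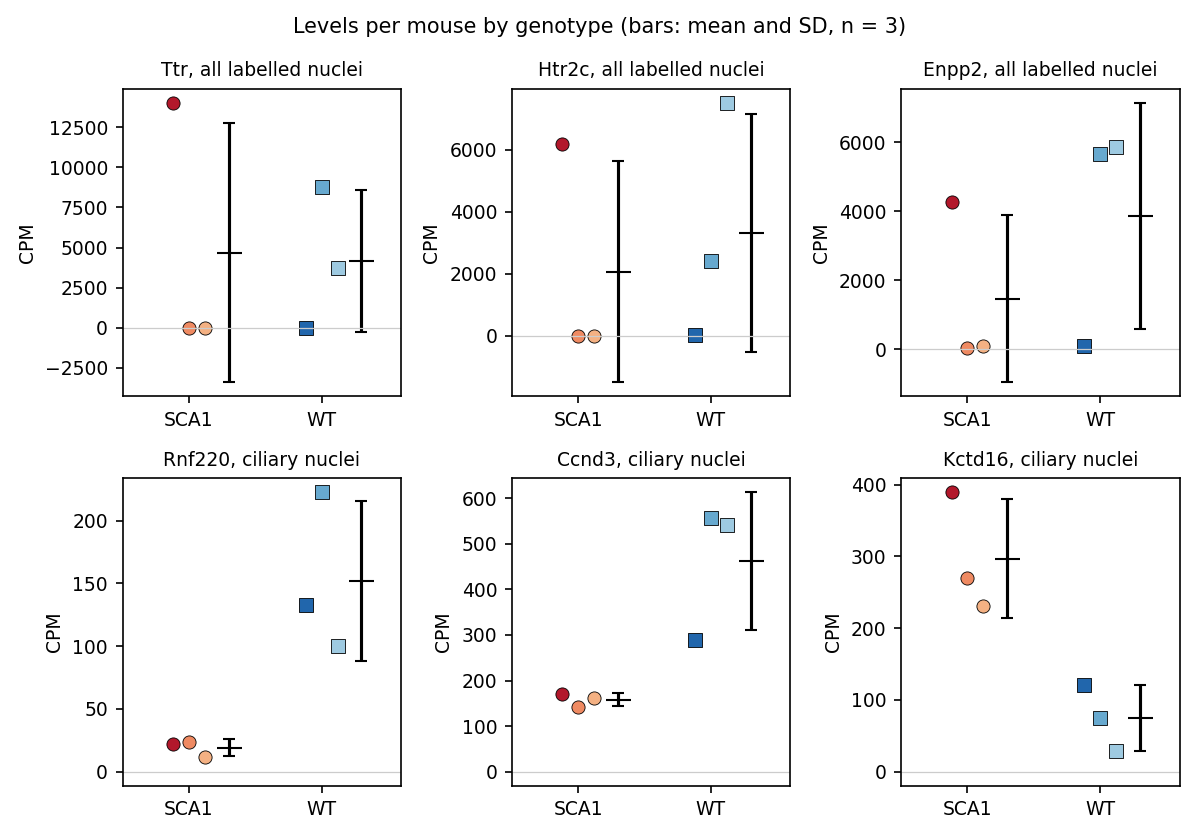
Level in CPM per mouse in SCA1 (circles) and WT (squares), with mean and SD beside the points (n = 3). Top: *Ttr*, *Htr2c* and *Enpp2* over all labelled nuclei, where the mice without choroid marker nuclei lie at or near 0 in both genotypes. Bottom: *Rnf220*, *Ccnd3* and *Kctd16* in ciliary nuclei, where SCA1 and WT mice do not overlap and 0 genes were called.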

How the data were processed

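Single-nucleus libraries of the cerebellum of 3 SCA1 and 3 WT mice were used. The authors deposited UMI counts per gene (32286 genes) and nucleus, not normalized, made with Cell Ranger (versions 4.0.0, 5.0.1 and 6.0.1 in the submitters' processing notes) on mm10 with the human *ATXN1* locus added and introns counted, after removal of debris with DIEM, whose UMI minimum was higher in the first sequencing run. They also deposited a Seurat cluster and a SingleR label per nucleus. No doublet caller was run here, so doublets remain among the labelled nuclei if present.

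Groups came from the sample labels, and the batches were inferred from library numbers. Total counts ran from 18916647 to 98366627 UMIs per mouse, and labelled nuclei held 41451 to 391345 UMIs per mouse. Counts were summed per mouse and tested with edgeR 4.0.16 (TMM, filterByExpr with a minimum count of 10 and total of 15, quasi-likelihood, Benjamini-Hochberg adjusted p under 0.05) in R 4.3.3, and with DESeq2 1.42.0. The procedure was tested on simulated counts, in which the mice did not differ in their mixture of kinds. The SE given with a log2 difference is its absolute value divided by the square root of edgeR's F statistic. Shares and depths were compared by exact permutation over mice in Python 3.11.15 (numpy 2.4.6, scipy 1.17.1, matplotlib 3.10.9). Levels are CPM of these sums without TMM. The replicates are separate mice. The main fit did not use replicate numbers as pairs, and whether they pair the mice is not known.

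Genes named are the 5 markers, up to 4 members per list with the highest mean CPM in labelled nuclei, the 20 leading genes (at least 50 UMIs and 1 in each mouse), and the 10 with the smallest p, unless said otherwise. Members and lists were chosen with earlier results of these data known. All 6 mice carried Y-linked RNAs. Gene annotation was GENCODE's for GRCm38, and promoter windows were RefSeq's for GRCm38.p6. Some genes that this rule names are not reported here.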

Additional observations from a re-analysis of the deposited data

How the results depend on the processing

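The share of labelled nuclei did not keep its direction. The difference of SCA1 minus WT was -0.0465 percentage points, 0.0380 where the label had also to be the most frequent of its cluster, and between -0.0869 and 0.000444 without 1 mouse. The depth of labelled nuclei stayed higher in SCA1, by 1357 to 6477 UMIs without 1 mouse. The count of genes called between genotypes was 0, 2 without a filter on low counts, and between 0 and 73 without 1 mouse, where SCA1 mouse 1 (53) and WT mouse 1 (73) decided it. It was 0 with DESeq2, RLE factors, library size only, no batch term, a minimum of 3000 UMIs, and in ciliary nuclei alone. The correlations of same-numbered mice's deviations were -0.366, -0.138 and 0.0496. SCA1 mouse 1 stood at 0.228 and 0.211 with WT mice 2 and 3, the other mice with choroid marker nuclei. As these sums mix the kinds unevenly, the correlations cannot show whether the replicate numbers pair the mice. With a replicate block in place of batch edgeR called 0 genes, with 18 at an unadjusted p under 0.05. The interaction with granule neurons called 0 under each alternative run. Tests on nuclei whose label was also the most frequent of their cluster could not be fitted, since 1 mouse a genotype had any.

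For single genes, *Ttr* turned to 0.35 without batch, to 0.23 in nuclei with at least 2 of 4 markers, and ranged from -12.83 to 0.60 without 1 mouse. *Htr2c* turned to 0.12 in nuclei with at least 2 of 4 markers and ranged from -12.54 to 0.046. *Folr1* ranged from -2.69 to 0.11, and to 0.13 and 0.28 in ciliary nuclei without SCA1 mouse 3 or WT mouse 3. The cause was not tested for single genes. With 83 nuclei and 946180 UMIs, 2941 genes could be tested.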
